A study of Rattus norvegicus with 10 samples.

Results

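The serotonin receptor genes are described here in the medial prefrontal cortex (mPFC) of 10 male Sprague-Dawley rats trained to take cocaine. The 10 members, Htr1a, Htr1b, Htr1d, Htr1f, Htr2a, Htr2c, Htr4, Htr5a, Htr6 and Htr7, were taken by name from the 22081 genes of the deposited tables, and all 10 were found in every rat's table. Every rat worked a lever for intravenous cocaine, 0.75 mg/kg at each infusion, from 11 weeks of age, then spent 10 days in abstinence, and tissue was taken on day 27. They form 5 high cue (HC) rats, numbered 9, 10, 11, 15 and 16, and 5 low cue (LC) rats, numbered 2, 4, 12, 13 and 14. A rat was HC or LC by whether its lever presses for the cocaine cue in session 12 lay above or below the median of the cohort, so both phenotypes are outbred animals with a cocaine history. How much cocaine each took was not analysed here. No cocaine-naive rats were analysed here either, so no level below is a level without cocaine. In the study, part of the rats in both phenotypes met the cue again in a further test at session 27. The names of the deposited tables mark HC rats 9, 10 and 11 and LC rats 12, 13 and 14 as Cue and HC rats 15 and 16 and LC rats 2 and 4 as NoCue. The sample labels do not carry this mark, and it is used below only under those names.

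Serotonin reaches the prefrontal cortex from neurons of the raphe nuclei in the brainstem, and the receptors on cortical cells decide what it does there. Htr2a and Htr2c encode receptors that couple to Gq proteins and excite cells through phospholipase C. The Htr1 genes and Htr5a encode receptors that couple to Gi proteins and lower cyclic AMP, and Htr4, Htr6 and Htr7 encode receptors that couple to Gs proteins and raise it. In rat mPFC the product of Htr2a is known for its place on the dendrites of pyramidal neurons, and the receptors from Htr2a and Htr2c are known for opposite effects on cocaine seeking.

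The libraries held 11296517 to 26664008 reads in exons per rat, and each rat gave 1 library. Levels within a gene are given as CPM, exon reads relative to the library's total after scaling between libraries, and levels between genes as TPM, which also divides by exon length. The library of LC rat 2 stood apart. Of its exon reads, 28.4% fell in mitochondrial genes, and in the other 9 rats 7.65% to 12.0% did. The tissue label was checked against marker genes. Markers of neurons summed to 5785 to 6888 TPM per rat, and the 3 defining genes of raphe serotonin neurons (Tph2, Slc6a4 and Fev) to 0.0833 to 0.752 TPM. The 11 genes used as markers of striatal projection neurons, whose home lies below the mPFC, summed to 867 TPM in LC rat 4 and to 332 to 438 TPM in the other 9 rats. Adora2a, 1 of the 11, stood at 28.9 CPM in LC rat 4, and the remaining rats had 3.23 to 5.49 CPM. The place of LC rat 2 also depended on the scale. By summed TPM it was the lowest of 10 rats in 11 of 13 cell type lists, and by CPM it was the highest in 6 of the 13.

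On the scale of TPM, which allows levels of different genes to be set side by side, the Gq-coupled receptors led the family. Htr2a had a mean of 21.7 TPM ± 3.46 (SD, n = 10 rats) and Htr2c of 21.1 ± 10.1. Htr1b followed at 18.0 ± 2.98, Htr1a at 14.7 ± 2.46, Htr5a at 10.1 ± 1.45 and Htr6 at 7.5 ± 1.92. Htr7 was at 3.65 ± 0.558, Htr1f at 1.51 ± 0.531, Htr1d at 1.32 ± 0.321 and Htr4 at 0.519 ± 0.259. The order did not follow the coupling of the receptors, since members of the Gi group stood both just below the Gq pair and just above Htr4. Among neighbours in it, 3 pairs did not differ beyond the larger of their SDs: Htr2a and Htr2c, with Htr2a above Htr2c in 5 of 10 rats, Htr2c and Htr1b, with Htr2c above in 6, and Htr1f and Htr1d, with Htr1f above in 5. Htr1a was above Htr5a, Htr5a above Htr6, Htr6 above Htr7 and Htr7 above Htr1f in 10 of 10 rats. Only 20.9% of the exon reads of Htr7 were placed uniquely, and all those of Htr1f and Htr1d were. The place of Htr7 above these genes thus rests on reads that were not placed uniquely.

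**Figure D1:**
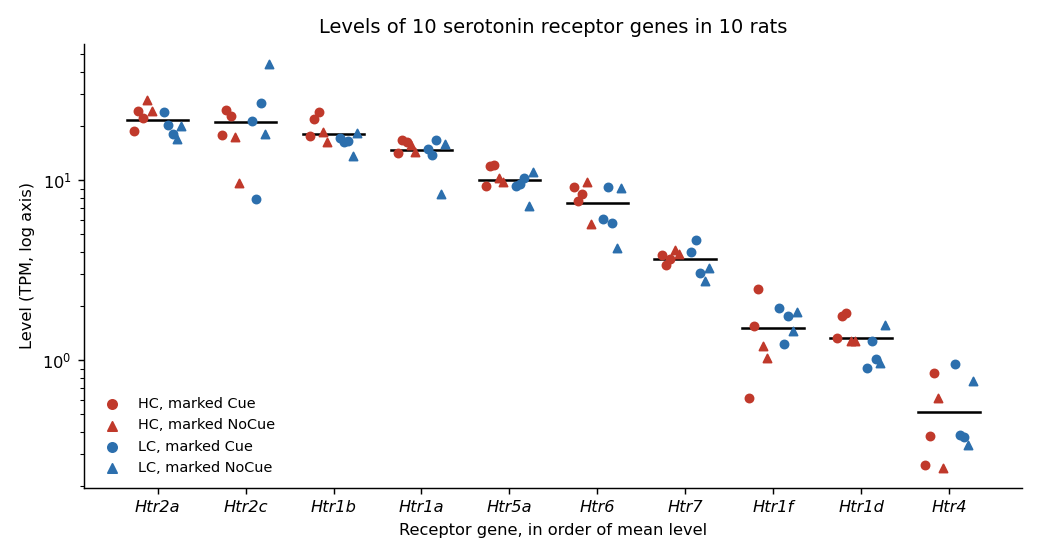
Level of each serotonin receptor gene in each rat, in TPM on a log axis, with HC rats in red, LC rats in blue, circles for rats marked Cue, triangles for rats marked NoCue, and a black line at the mean of 10 rats. The means fall from 21.7 TPM for Htr2a to 0.519 TPM for Htr4, and the points of Htr2c are spread from 7.92 to 44.2 TPM.

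Which receptor was the most abundant depended on the rat. Htr2a was the highest of the 10 in 5 rats (HC rats 9, 15 and 16 and LC rats 12 and 13), Htr2c in 4 (HC rat 10 and LC rats 2, 4 and 14) and Htr1b in 1 (HC rat 11). Htr2c made up 9.34% of the summed TPM of the family in LC rat 13 and 35.1% in LC rat 4. For Htr2a the share ran from 15.9% in LC rat 4 to 28.0% in HC rat 16. The summed TPM of the 10 genes was lowest in LC rat 2 (73.8), where mitochondrial reads take part of the fixed total, and highest in LC rat 4 (126). Both extremes of Htr2c lay in LC rats, so its full range was seen within the LC phenotype. The mean share of Htr2c was 17.6% ± 4.06 in HC rats and 23.4% ± 9.38 in LC rats (SD, n = 5), a difference that was not tested.

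Of the other serotonin receptor genes of the tables, 1 was at a level like that of the members. Htr3a, which encodes a subunit of the ion channel type of serotonin receptor, had 54 to 153 exon reads per rat and a mean of 5.86 TPM ± 1.09 (SD, n = 10), and it was above Htr7 in 10 of 10 rats. Htr2b and Htr5b had 0 to 5 exon reads per rat, and Htr3b had 0 in all 10, beside 1 to 8 intron reads. A count of 0 allows up to 3 reads, or 0.113 to 0.266 CPM depending on the library, by counting error alone. Of the 16 exon reads of Htr5b over all rats 12 were placed uniquely, in 4 rats, so that a low level of it was detected. None of the 15 reads of Htr2b was unique, and for Htr2b and Htr3b the depth cannot tell a low level from none.

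Htr2a lies on chromosome 15 at 56666012 to 56735382 on the plus strand of the rat genome build Rnor_6.0, in 3 exons. Htr2c lies on chromosome X at 118084890 to 118318039 on the plus strand, in 13 exons and 2 annotated transcripts. Htr1a (chromosome 2, 36246628 to 36247896), Htr1b (chromosome 8, 89129453 to 89130991), Htr1d (chromosome 5, 154800226 to 154801350) and Htr1f (chromosome 11, 1982113 to 1983513) are each annotated as a single exon, so they can have no intron reads. Htr5a (chromosome 4, 199916 to 209599) has 2 exons, Htr4 (chromosome 18, 57654290 to 57819698) 10, Htr6 (chromosome 5, 157503040 to 157518631) 9 and Htr7 (chromosome 1, 254547620 to 254671778) 9. All exon reads of 9 members were placed uniquely. Htr7 was the exception, with 20.9% of its exon reads unique (10.5% to 29.2% by rat), whereas only 8.29% of 12205 genes with a mean of at least 50 exon reads had under 50% unique reads. Htr7 is also the only member that overlaps another gene, AC080157.1 on the opposite strand, which itself had a mean of 4.2 exon reads. The level of Htr7, and with it its place in the order of levels, is thus less certain than that of the other members.

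To ask whether the receptor genes differ between the cue phenotypes, exon reads of HC and LC rats were compared in a fit of edgeR's quasi-likelihood test over all 14135 genes with enough reads. Of the 10 members 9 entered the fit, and Htr4, with 2 to 11 exon reads per rat, did not. None of the 9 passed an unadjusted p of 0.05, a level that 1.74% of all genes tested passed. After adjustment no gene in the table passed 0.05, by edgeR (246 genes at the unadjusted level), DESeq2 (301) or limma-voom (182), and by none of the 3 tools did a member pass the unadjusted level. In none of the 9 did the levels of HC and LC rats fall apart without overlap, which they did in 0.439% of genes tested. The HC against LC differences of the members ran from −0.59 to 0.16 on the log2 scale.

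Htr2a was at 38.8, 51.3, 44.7, 59.0 and 54.2 CPM in HC rats 9, 10, 11, 15 and 16, and at 62.3, 45.8, 53.5, 43.7 and 39.3 CPM in LC rats 2, 4, 12, 13 and 14. The 2 groups covered nearly the same range, with the highest value in LC rat 2 and the lowest in HC rat 9. The means were 49.6 ± 7.96 CPM (SD, n = 5) and 48.9 ± 9.08, a log2 fold change of 0.02 (SE 0.14, adjusted p = 0.969 by edgeR).

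Htr2c was at 35.1, 49.3, 43.3, 34.8 and 20.6 CPM in the same HC rats and at 63.4, 96.4, 45.6, 16.2 and 55.6 CPM in the LC rats. The HC values thus lay inside the LC range, whose 2 ends were LC rats 13 and 4, and 3 LC rats were above every HC rat. The means were 36.6 ± 10.8 and 55.4 ± 29.1 CPM, and the log2 fold change was −0.59 (SE 0.37). The difference did not pass the unadjusted level (unadjusted p = 0.141 by edgeR, two-sided exact permutation p = 0.365 over 252 regroupings). Its adjusted p of 0.885 by edgeR was the smallest of the whole fit. The value moved with single LC rats. With each rat left out in turn it lay between −0.83 and −0.29. It was −0.29 without LC rat 4, and −0.83 without LC rat 13, which passed the unadjusted level in edgeR. Without LC rats 2 and 4 together it was −0.09. These 2 rats had the most Htr2c by CPM, so leaving them out could only shrink the difference. By limma on log2 TPM, a scale that moved the median of all genes to 0.23, the log2 fold change was −0.22.

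**Figure D2:**
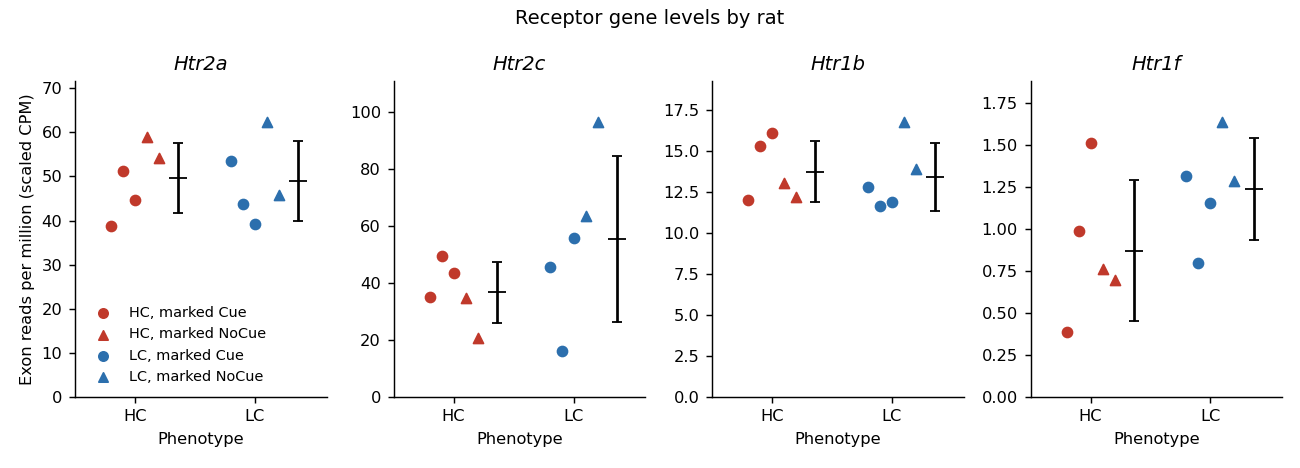
Scaled CPM from exon reads of Htr2a, Htr2c, Htr1b and Htr1f in each HC rat (red) and LC rat (blue), with circles for rats marked Cue and triangles for rats marked NoCue. Black bars give the mean and SD of the 5 rats, and the groups overlap in all 4 genes.

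Among the Gi-coupled receptors, Htr1a, the receptor through which serotonin quiets pyramidal neurons, was the steadiest member by CPM. Its levels ran from 8.04 to 9.72 CPM in HC rats and from 8.19 to 9.97 CPM in LC rats, a log2 fold change of −0.04 (SE 0.10). By TPM Htr1a was not the steadiest. It ran from 8.35 TPM in LC rat 2 to 16.8 TPM, a wider relative range than that of Htr5a (7.20 to 12.1 TPM). Htr1b, a receptor of axon terminals, was at 12.0, 15.3, 16.1, 13.0 and 12.2 CPM in HC rats and at 16.8, 13.9, 12.8, 11.7 and 11.9 CPM in LC rats. In each phenotype 2 rats were at 13.9 CPM or more and 3 at 13.0 CPM or less, and the log2 fold change was 0.04 (SE 0.13). Htr5a ran from 8.04 to 10.7 CPM among HC rats and from 8.65 to 11.3 CPM among LC rats (log2 fold change −0.04, SE 0.12).

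The 2 remaining Gi-coupled members were low. Htr1f, the target of a class of migraine drugs, had 7, 12, 32, 21 and 8 exon reads in HC rats and 17, 19, 16, 19 and 28 in LC rats, or 0.386, 0.988, 1.52, 0.764 and 0.697 CPM against 1.64, 1.29, 1.31, 0.798 and 1.16 CPM. All but 1 of the LC rats were above all but 1 of the HC rats, and HC rat 11 was the exception on its side. The log2 fold change was −0.46 (SE 0.34, adjusted p = 0.885 by edgeR, two-sided exact permutation p = 0.135), and it was −0.79, past the unadjusted level, without HC rat 11. Htr1d, a close relative of Htr1b, had 8 to 19 exon reads in HC and 6 to 16 in LC rats, with a log2 fold change of 0.16 (SE 0.25).

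Of the Gs-coupled receptors, Htr6 ran from 5.66 to 9.06 CPM among HC rats and from 5.54 to 9.22 CPM among LC rats, with a log2 fold change of 0.06 (SE 0.18). Htr7 ran from 5.11 to 6.27 CPM among HC rats and from 4.76 to 7.32 CPM among LC rats, with a log2 fold change of −0.11 (SE 0.15). For both, the LC range enclosed the HC range. Htr4 had 3, 3, 11, 11 and 2 exon reads in HC rats and 4, 8, 8, 6 and 6 in LC rats, too few for a comparison of exons.

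**Figure D3:**
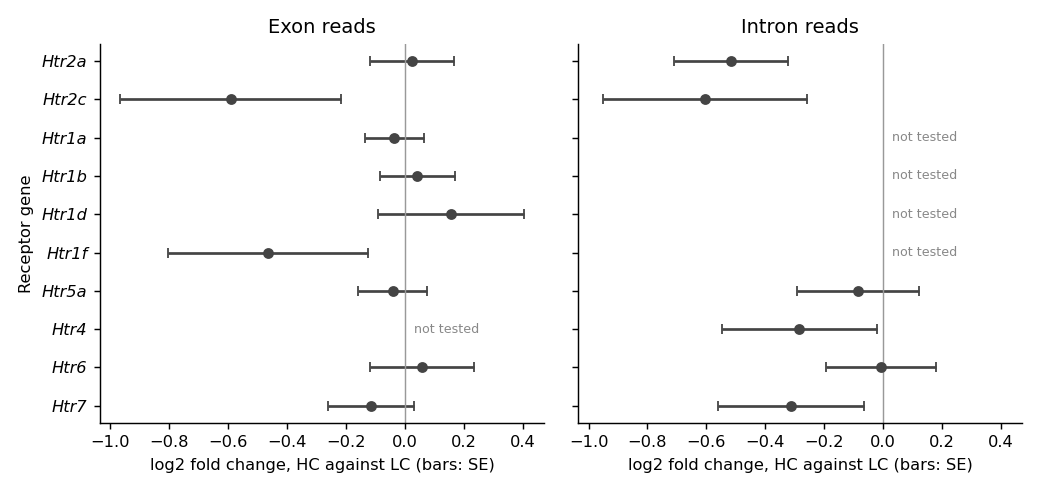
Log2 fold change of each receptor gene, HC against LC, from exon reads (left) and from intron reads (right), with bars of 1 standard error. Of the exon values only those of Htr2c (−0.59) and Htr1f (−0.46) lie away from 0 by more than their standard error, and of the intron values Htr2a (−0.52), Htr2c (−0.61), Htr7 (−0.31) and Htr4 (−0.28) do.

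Intron reads come mostly from transcripts that are not yet spliced and give another readout of the 6 members that have introns. As a share of a gene's exon and intron reads together, pooled over rats, they made up 92.0% in Htr4, 46.4% in Htr6, 40.0% in Htr2a, 16.6% in Htr7, 14.5% in Htr5a and 6.22% in Htr2c, against a median of 15.1% over 12990 genes. Htr2a and Htr2c, alike in mean exon level, thus stood on opposite sides of the median gene. Nearly all that the libraries held of Htr4 was intronic, with 36 to 99 intron reads per rat. Spliced transcripts of Htr4 were seen as well. Reads across its exon junctions, 1 to 3 each in HC rats 10 and 11 and LC rats 2, 13 and 14, made up 14.5% of its few exon reads.

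In intron reads, 1 of these 6 members was set apart by phenotype at an unadjusted p, and it was Htr2a, lower in HC rats. It had 145, 220, 158, 145 and 252 intron CPM in HC rats 9, 10, 11, 15 and 16 and 371, 235, 285, 178 and 242 intron CPM in LC rats 2, 4, 12, 13 and 14. Of the HC rats, 3 were below every LC rat, LC rat 2 was the highest of all, and the groups overlapped through HC rats 10 and 16. The means were 184 ± 49.0 and 262 ± 71.6 intron CPM, with a log2 fold change of −0.52 (SE 0.19, unadjusted p = 0.0162 and adjusted p = 0.985 by edgeR). An unadjusted p of 0.05 was passed by 3.07% of the 12293 genes tested on introns (1.94% lower in HC), and no member was without overlap in intron CPM, against 0.594% of genes. By exact permutation of the rats, two-sided, p was 0.0635 for Htr2a. The value lay between −0.64 and −0.36 with each rat left out in turn, at an unadjusted p under 0.05 every time, the smallest of these being that without LC rat 2. After adjustment over all genes it was not called.

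Within Htr2a itself the share of intron reads was 41.9%, 38.9%, 35.8%, 28.3% and 40.3% in the HC rats and 51.2%, 40.4%, 42.4%, 39.8% and 47.3% in the LC rats. HC rat 15 was the lowest and LC rat 2 the highest. The means were 37.0% ± 5.37 and 44.2% ± 4.90, a difference of −7.22 percentage points (two-sided exact permutation p = 0.0476, 252 regroupings, 1 of 6 genes tested this way and not adjusted). The difference passed 0.05 without HC rat 9, LC rat 4 or LC rat 13 but not without any 1 of the other 7 rats, with p up to 0.127 without HC rat 15. The intron share of whole libraries also moved, from 11.2% in LC rat 2 to 15.9% in HC rat 9, and relative to it the share of Htr2a in HC rats was lower by a log2 difference of −0.39 (two-sided exact permutation p = 0.0159). This last ratio was chosen after the shares had been seen.

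None of the other 5 members passed the unadjusted level in introns with all 10 rats in the fit. Htr2c had 8.98 to 26.2 intron CPM in HC and 7.51 to 35.4 in LC rats (log2 fold change −0.61, SE 0.35, unadjusted p = 0.101 by edgeR), a difference of the size seen in its exons and larger than that of Htr2a, with a larger standard error. It passed the unadjusted level without LC rat 13 (−0.87) and without HC rat 10 (−0.80), and not without any 1 of the other 8 rats. Its intron share was 6.43% ± 1.27 against 6.45% ± 1.53. For Htr4 the intron fold change was −0.28 (SE 0.26), for Htr7 −0.31 (SE 0.25), for Htr5a −0.08 (SE 0.21) and for Htr6 −0.01 (SE 0.19), all on the log2 scale. That the change of Htr2a differs from that of these genes was not tested.

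**Figure D4:**
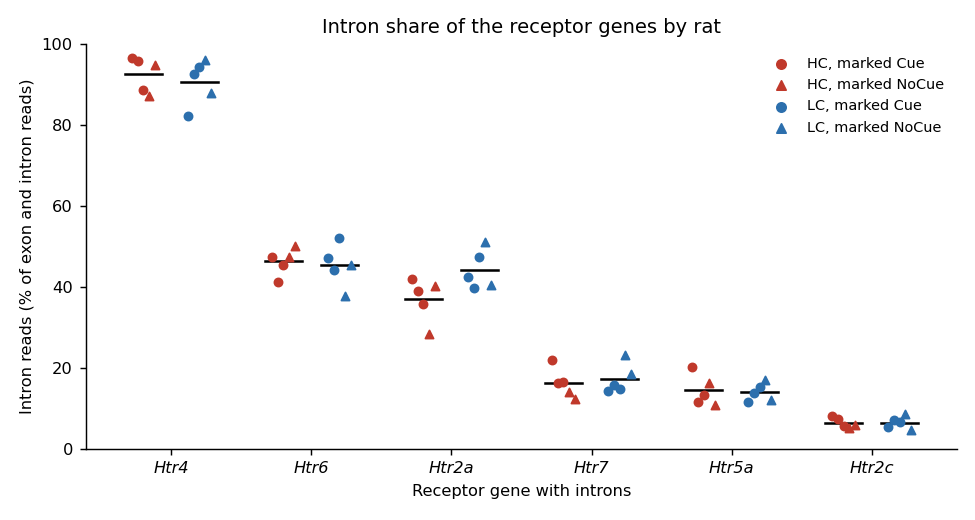
Intron reads as a percent of exon and intron reads in each rat for the 6 receptor genes with introns, HC rats in red and LC rats in blue, circles for rats marked Cue and triangles for rats marked NoCue, with a line at each group's mean. Htr2a has means of 37.0% in HC and 44.2% in LC rats, and Htr4 lies above 82% in every rat.

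Rats marked Cue were then compared with rats marked NoCue, with phenotype in the fit, to ask whether the receptor genes move with the mark. Of the 9 members tested, 1 (Htr2a) passed an unadjusted p of 0.05, where 9.77% of the 14621 genes tested did (5.42% lower in Cue), so the members' share is close to that of all genes. Htr2a averaged 45.2 ± 6.07 CPM in the 6 Cue rats and 55.3 ± 7.16 CPM in the 4 NoCue rats. Within HC both NoCue rats were above the 3 Cue rats, and within LC rat 2 was above the 3 Cue rats and rat 4 above all but 1 of them. The log2 fold change was −0.29 (SE 0.12, unadjusted p = 0.0341 and adjusted p = 0.501 by edgeR), and the exact permutation of marks within phenotype gave p = 0.07 (two-sided, 100 regroupings). It missed 0.05 without any 1 of 7 rats (−0.21 without LC rat 2) and when libraries were scaled by size alone (−0.17). In intron reads Htr2a had a log2 fold change of −0.27 (SE 0.18) between the marks. None of the other 8 members passed. The log2 fold change was −0.27 (SE 0.40) for Htr2c, which turned to 0.059 without LC rat 4 and 0.013 without LC rat 13, and −0.01 (SE 0.10) for Htr1a, and no member was without overlap between the marks, against 2.05% of genes tested.

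Whether the phenotype difference itself depends on the mark was tested as an interaction. Here 2 of 9 members passed an unadjusted p of 0.05, where 13.1% of genes did, and both have an adjusted p of 0.376 by edgeR. For Htr2c the HC minus LC difference was 0.12 (SE 0.39) in Cue rats and −1.51 (SE 0.49, unadjusted p = 0.0116 by edgeR) in NoCue rats, where 22.0% of all genes passed that level. Among the NoCue rats, HC rats 15 and 16 had 34.8 and 20.6 CPM, and LC rats 2 and 4 had 63.4 and 96.4. The difference of differences was 1.63 on the log2 scale (SE 0.62, unadjusted p = 0.0258 by edgeR). The LC rats marked NoCue are rats 2 and 4, the rat with the high mitochondrial share and the rat with the high striatal markers, so mark, phenotype and these 2 features cannot be told apart in that group. The interaction of Htr2c ran from 1.26 to 2.07 with a rat left out, and it missed the unadjusted level in edgeR without LC rat 4 (1.28), HC rat 16 (1.32) or HC rat 10 (1.52). Without LC rat 4 or LC rat 2 (1.88) the LC rats marked NoCue are a single rat, and the same holds for HC without rat 15 or 16, so that the spread in these fits comes from the other groups and the lone rat is assumed to vary like them.

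For Htr1b the same test gave 0.53 (SE 0.22, unadjusted p = 0.0350 by edgeR). Its 3 HC rats marked Cue averaged 14.5 CPM and its 3 LC rats marked Cue 12.1 CPM, whereas the NoCue pairs averaged 12.6 CPM (HC) and 15.3 CPM (LC). Within HC the Cue rat 9 was at 12.0 CPM, below both NoCue rats, and within LC both NoCue rats were above the 3 Cue rats. Without any 1 of 7 rats the value missed 0.05, and without LC rat 2 it was 0.39. The other 7 members did not pass.

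Of all members Htr2c varied most between rats. The SD of its log2 CPM was 0.75 over 10 rats, above that of 98.2% of 12203 genes with a mean of at least 50 exon reads, and its highest level (96.4 CPM, LC rat 4) was 5.96 times its lowest (16.2 CPM, LC rat 13). The median gene had an SD of 0.20. By the same measure Htr1a had 0.11, Htr5a 0.16, Htr1b 0.19, Htr7 0.20, Htr2a 0.24 and Htr6 0.27. These SDs ran from above 14.9% of the genes for Htr1a to above 70.7% for Htr6. Reads across exon junctions, which can come only from spliced transcripts, made up 4.42% of the exon reads of Htr2c over all rats and 0.422% in HC rat 16.

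The rats with the least Htr2c and the rat with the most were also at the ends of some marker lists. Htr2c is known in cortex from deep layer neurons, and it is also strongly expressed in the choroid plexus and present in striatum. The 9 markers of deep layer excitatory neurons added up to 614 CPM for LC rat 13 and 620 CPM for HC rat 16, the 2 rats with the least Htr2c, while the other 8 had 729 to 889 CPM. By summed TPM these 2 rats (706 and 676 TPM) were also below 7 of the other rats, which had 885 TPM or more, but above LC rat 2 (578 TPM). In 5 of the 9 (Fezf2, Bcl11b, Tle4, Foxp2 and Syt6) these 2 rats were the lowest of 10, which was so for 2.27% of 12205 genes. Foxp2, for example, was at 6.79 and 7.39 CPM there and at 10.95 CPM or more elsewhere. Of the remaining deep layer markers, HC rat 16 was the lowest in Tbr1 and Pcp4, LC rat 2 in Crym and HC rat 9 in Etv1. Among the 13 cell type lists this place was not particular to the deep layer list. The 3 ependymal markers, all low, also had their lowest sums in HC rat 16 (0.784 CPM) and LC rat 13 (0.966 CPM). Their highest sum was in LC rat 4 (2.78 CPM). By TPM too, HC rat 16 (2.07) and LC rat 13 (2.00) were the lowest in that list. These rats were singled out for their Htr2c level after it had been seen, so the matches are a description and not a test. The median log2 fold change of the 9 deep layer genes between HC and LC was −0.07, with 1 of 9, Pcp4, lower in HC at an unadjusted p of 0.05, against 1.02% of all genes. Pcp4 was at 141 and 104 CPM in LC rats 2 and 4, its log2 fold change of −0.55 became −0.32 without LC rat 2 and −0.48 without LC rat 4, and it missed the unadjusted level without either.

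At the other end, the 11 striatal markers added up to 1006 CPM for LC rat 4, the rat with the most Htr2c on both scales, to 652 CPM for LC rat 2 and to 442 to 475 CPM for the other 8. In LC rat 4, 10 of the 11 markers were at their highest. LC rat 2 was second in Htr2c by CPM (63.4) but sixth of 10 by TPM (18.0), and its striatal sum was the second highest by CPM and the lowest by TPM (332 TPM). By CPM it was also the highest in the lists for neurons (11624 CPM, against at most 7818 CPM elsewhere), astrocytes, interneurons and upper and deep layer neurons, so its high CPM sums were not particular to striatal markers. For the 10 choroid plexus markers its sum was likewise the highest by CPM (80.7) and the lowest by TPM (40.4), and in LC rat 4 the sum was 67.2 CPM, against 46.5 to 61.1 CPM in the other 8. Nearly all of it was Enpp2, which oligodendrocytes also express. Ttr, the defining gene of choroid plexus, was at 0.0364 to 3.28 CPM, with its highest level in LC rat 12, and Otx2 was at 0 in every rat but LC rat 4. Folr1, Clic6 and Sostdc1 were also highest in LC rat 4, at 0.339, 0.339 and 0.542 CPM. These 3 had means of only 1.2 to 2.0 exon reads per rat. Kl, Kcnj13 and Prlr were highest in HC rat 16, and Slc4a5 and Enpp2 in LC rat 2. The part of these cell types in the level of Htr2c was not tested, and in bulk tissue fewer cells of a type and less RNA per cell cannot be told apart.

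**Figure D5:**
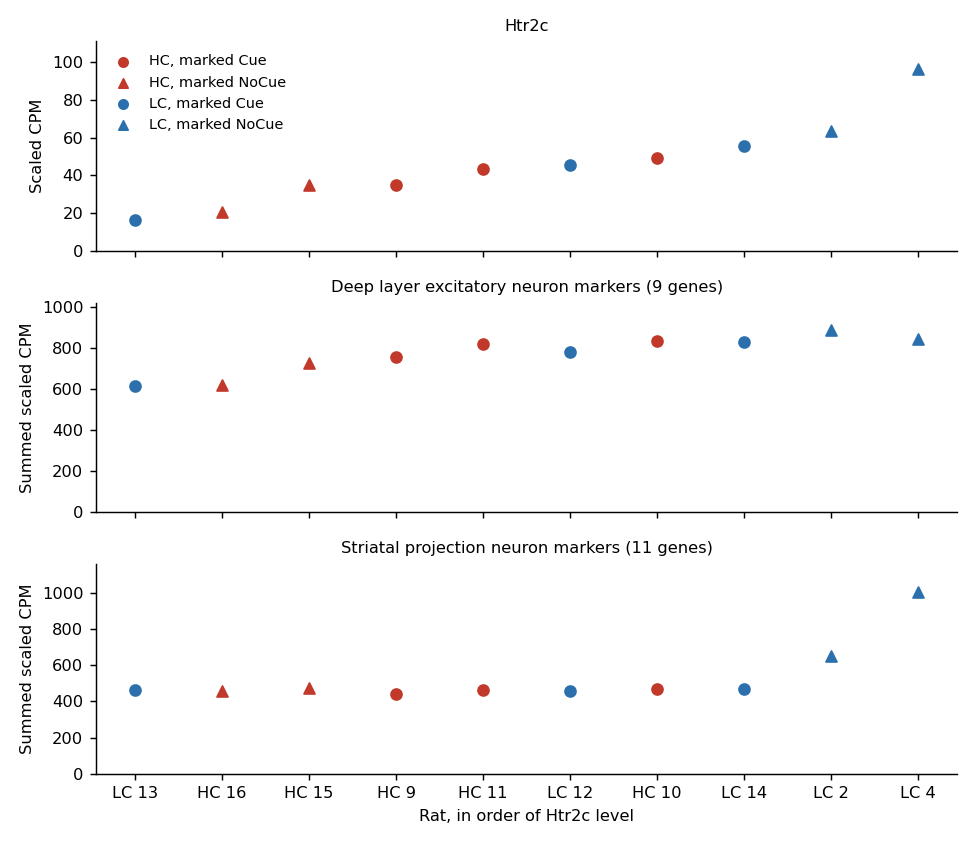
Level of Htr2c (top), the summed level of 9 deep layer excitatory neuron markers (middle) and that of 11 striatal projection neuron markers (bottom) in scaled CPM, with the rats in order of their Htr2c level. LC rat 13 and HC rat 16 are lowest in the top and middle panels, and LC rat 4 is highest in the top and bottom panels. LC rat 2 is second there on this scale, but by TPM it was sixth of 10 in Htr2c and lowest in the sums of both marker lists.

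The genes whose log2 CPM followed Htr2c most closely over the 10 rats were Mctp1 (Pearson r = 0.95), Sez6 (0.94), LOC691995 (0.92), Tpbg (0.92) and Myh7 (0.92), out of 12202 genes. Without LC rat 4, where Htr2c was highest, r lay between 0.88 for Tpbg and 0.93 for Mctp1. Mctp1 ran from 13.5 CPM in LC rat 13 to 33.2 CPM in LC rat 4. Those closest to Htr2a were Thsd7a (0.93), Npy1r (0.91), Exd2 (0.91), Arntl (0.91) and Slitrk3 (0.90), with 0.87 to 0.91 without LC rat 2. These are the highest of many correlations over points that share library, depth and tissue piece, and they are given as a description. No gene was on both lists.

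The genes around the receptors were compared in the same fits. In the serotonin supply list of 8 genes, those for synthesis, transport and breakdown, 4 had enough reads, Ddc, Slc18a2, Maoa and Maob, and 0 of 4 passed an unadjusted p of 0.05 between the phenotypes (1.74% of all genes did). Tph1, which encodes the enzyme of serotonin synthesis outside the brain, and Tph2, Slc6a4 and Fev, which mark serotonin neurons themselves, had too few reads to test. Maob and Maoa, the enzymes that break serotonin down in the cortex, had log2 fold changes of −0.02 (SE 0.09) and 0.03 (SE 0.08).

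Of 16 genes for receptor partners, which bind, traffic or edit these receptors, 1 passed. It was Bbip1, a subunit of a complex that carries receptors to cilia, lower in HC rats with a log2 fold change of −0.73 (SE 0.31, unadjusted p = 0.0399 and adjusted p = 0.885 by edgeR). With LC rat 2 left out its value was −0.40, with LC rat 4 left out −0.67 and with both left out −0.18, and in none of these fits did it pass the unadjusted level. Adar and Adarb1, enzymes that edit Htr2c transcripts, had values of 0.07 (SE 0.08) and 0.04 (SE 0.10), and Dlg4, a scaffold that holds Htr2a and Htr2c products at synapses, 0.06 (SE 0.10). Values of the whole list ran from −0.73 to 0.22.

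Of the signalling genes downstream, 0 of 8 in the Gq list, 0 of 9 in the Gi list and 0 of 9 in the Gs list passed in that comparison, with log2 fold changes from −0.23 to 0.21. Gnas, the usual Gs subunit, was not analysed here. Between the marks, Prkca, a protein kinase C, was lower in Cue rats (−0.32, SE 0.11), Gnao1, the most abundant Gi type subunit of neurons, was lower (−0.22, SE 0.10), and Kcnj9, a potassium channel opened by Gi-coupled receptors, was higher (0.39, SE 0.16). All 3 passed the unadjusted level with an adjusted p of 0.501 by edgeR, and 3 of the 46 listed genes tested is no larger a share than the 9.77% of all genes. Without LC rat 2 Prkca (−0.21) and Gnao1 (−0.10) missed that level and Kcnj9 (0.20) passed it, and without LC rats 2 and 4 none of the 3 passed.

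Cell type markers in the comparison of HC with LC mostly did not pass. Among 11 striatal markers 2 passed, Adora2a (−1.33, SE 0.57) and Penk (−0.71, SE 0.28), both lower in HC rats with an adjusted p of 0.885 by edgeR, where 1.74% of all genes passed. All 11 had values below 0, with a list median of −0.44. These values depended on LC rats 4 and 2. Penk was at 110 CPM in LC rat 4, at 73.5 CPM in LC rat 2 and at 45.5 CPM or less in HC rats. Without LC rat 4 none of the 11 passed (Adora2a −0.23, Penk −0.40, list median −0.13), and 10 of 11 were still below 0. Without LC rats 2 and 4, 5 of 11 were below 0 and the list median was 0.037. Ccdc153, 1 ependymal gene tested, was lower in HC rats (−0.86, SE 0.39) but missed the unadjusted level without LC rat 2 and without LC rat 4. No marker passed in the lists for upper layer neurons, layer 6b and claustrum, interneurons, astrocytes, oligodendrocytes, microglia, vascular cells, choroid plexus or neurons as a whole. Between the marks, all 11 striatal markers had values below 0 in Cue rats, with a list median of −0.48, and 6 of the 11 passed the unadjusted level, where 5.42% of all genes passed it in that direction (adjusted p = 0.501 by edgeR for each of the 6). The 4 NoCue rats include LC rats 2 and 4. Without LC rat 4, 3 of 11 passed with a list median of −0.20, and without LC rat 2, 7 of 11 did with a median of −0.50. Without both, where the contrast rests on HC rats alone, none was lower at that level, 2 were higher (Drd1 and Rgs9), and the median was −0.0020. In that fit 4 of 9 deep layer markers (Fezf2, Tle4, Foxp2 and Pcp4) were higher in Cue rats. So were 4 of 6 markers of layer 6b and claustrum (Nr4a2, Cplx3, Nxph4 and Ccn2). The list medians were 0.34 and 0.94. Of the 14668 genes tested in that fit, 6.52% passed the unadjusted level in either direction. With all 10 rats 3 of 6 astrocyte markers, 2 of 6 upper layer markers and 1 each of the interneuron, microglia, neuron and choroid plexus markers were lower in Cue rats, 1 of 6 oligodendrocyte markers was higher, and none passed in the deep layer, layer 6b and claustrum, vascular and ependymal lists.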

How the data were processed

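RNA from the mPFC of 10 rats was sequenced by the authors as single-end reads of 50 bases from a stranded library kit, and mapped to Rnor_6.0 (annotation release 97) in CLC Genomics Workbench version 21. Whether the counting used strand is not stated in these sources. The deposited tables hold counts of reads per gene (exon, unique exon, intron, exon junction and whole gene). They also hold TPM and RPKM values that the authors derived from the exon reads and exon length. A further deposited table holds the authors' own comparison of the phenotypes (fold changes and p-values) and was not used here. Of the study's 12 rats, 2 failed its quality control.

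Phenotypes were taken from the sample labels and the Cue or NoCue mark from the names of the tables. Replicates are separate rats. Exon counts were filtered by filterByExpr, scaled by TMM and tested in edgeR 4.0.16 (R 4.3.3) by quasi-likelihood F-tests over all genes, with Benjamini-Hochberg adjustment. The standard error is the log2 fold change over the square root of F. Intron counts had their own filter and scaling. Exact two-sided permutation tests compared group means of intron shares or of log2 CPM (prior count 2). Alternatives used DESeq2 1.42.0, limma 3.58.1 (voom, and log2 TPM with a pseudocount of 0.1), other scalings, filters and read types, and each rat left out. Listed genes were refitted without LC rats 2 and 4, and marker sums taken in TPM as well, as alternatives added after the data had been seen. The edgeR fit of HC against LC was also run on simulated counts, with differences placed in genes with a mean of at least 50 exon reads. That run does not cover members with fewer reads or a library that stands apart. All members are named; genes of the fixed lists are named where they passed an unadjusted p of 0.05, otherwise as examples, and the genes most like Htr2c and Htr2a by correlation. The members and lists were chosen with earlier results of these data known. Exon reads per rat, 11296517 to 26664008, leave Htr1d, Htr1f and Htr4 with at most 32 reads in any rat, so their values carry large counting error.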

Additional observations from a re-analysis of the deposited data

Results flagged for a closer look

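The HC minus LC difference of Htr2c was higher in rats marked Cue than in rats marked NoCue by 1.63 on the log2 scale, and that of Htr1b by 0.53. Both passed an unadjusted p of 0.05 in the test of the difference itself (0.0258 and 0.0350 by edgeR), neither passed after adjustment over all genes (0.376 for both), and 13.1% of all genes passed the unadjusted level. The NoCue side of the contrast holds 2 HC and 2 LC rats, and the 2 LC rats are the one with a high mitochondrial share and the one with high striatal markers. The 10 exon levels and 6 intron shares were also searched in each phenotype, 32 groups of 5 rats in all, for 1 rat far from the others of its group, and none was found.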

How the results depend on the processing

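No paired analysis was possible because HC and LC rats share no rat number. In the HC against LC comparison the count of members called, 0 of 9, was 0 under each other scaling, filter, read type and tool tried, and 0 to 1 with a rat left out (Htr1f without HC rat 11, Htr2c without LC rat 13). Htr2c kept its direction in each of these settings, from −0.83 to −0.29 with a rat left out. Its size fell to −0.40 by limma-voom, −0.22 by limma on log2 TPM and −0.09 without LC rats 2 and 4. The direction did not hold within each mark: it was 0.12 (SE 0.39) among Cue rats and −1.51 (SE 0.49) among NoCue rats. Library size alone and TPM, which moved the median of all genes by 0.10 and 0.23, turned the small differences of Htr1a (0.053 and 0.19) and Htr5a (0.061 and 0.18), and TPM that of Htr7 (0.11). Relative to those medians they stayed close to 0. Gene reads, which include introns, turned Htr2a (−0.18), and leaving out LC rats 2 and 4 turned Htr5a (0.079). With a rat left out, the range was −0.075 to 0.00053 for Htr1a, −0.024 to 0.13 for Htr1b, −0.047 to 0.13 for Htr2a, −0.086 to 0.014 for Htr5a and −0.031 to 0.16 for Htr6.

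Between the marks, the count of members called was 0 with library size alone and with gene reads, and 0 to 1 with a rat left out. Htr1a became 0.088 with library size alone (median of all genes 0.10), and ranged from −0.050 to 0.034 with a rat left out, and Htr2c from −0.57 to 0.059. The interaction had 0 to 3 members called with a rat left out. In introns 1 to 2 members were called with a rat left out (Htr2a every time, and Htr2c without HC rat 10 or LC rat 13), Htr5a became 0.017 and Htr6 0.11 with the scaling of the exon reads, and Htr6 became 0.0056 without the filter and ranged from −0.13 to 0.14. The intron share difference of Htr2c ranged from −0.47 to 0.53 percentage points. The order of levels was the same by RPKM, which ranks genes within a rat as TPM does and so is no separate check. With a rat left out, 8 to 10 genes kept their place. The cause of these changes was not tested.

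The number of all genes at an unadjusted p of 0.05 moved more than that of the members. For HC against LC it was 246, and 451 without the filter, 391 with the mark as covariate and 154 to 634 with a rat left out. For the marks it was 1429, and 909 to 2398 with a rat left out, and DESeq2 called 40 genes after adjustment. For the interaction it was 1920, and 704 to 6469, the highest without LC rat 4. For introns it was 377, and 648 without the filter and 244 to 896. Limits lie in 5 rats per phenotype, in 2 NoCue rats per phenotype, and in depth: Htr1d, Htr1f and Htr4 had at most 32 exon reads in any rat.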
